A study of Mus musculus with 6 samples.

Results

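The genes described here are 10 genes of the integrated stress response and its secreted hormones, followed by RNA-Seq in mouse liver after loss of *Spns1*, which encodes a lysosomal lysophospholipid transporter. They are *Atf4*, *Atf5*, *Ddit3*, *Atf3*, *Nupr1*, *Trib3*, *Asns*, *Chac1*, *Fgf21* and *Gdf15*. They were picked by gene name, as the *Atf4* branch with *Fgf21* and *Gdf15*. The names matched 11 of the 54532 rows of the count table, because *Ddit3* has a second row, which had 0 counts in all 6 libraries. All 10 genes passed the filter on low counts and were among the 15449 genes tested.

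Whole livers of 3 gSpns1-cKO mice and 3 controls were sequenced, with 1 library per liver. The gSpns1-cKO mice carried floxed *Spns1* alleles and Cre-ERT2, a Cre recombinase that works only once tamoxifen is given. It was expressed from the Rosa26 locus in cells throughout the body, so the deletion is not limited to hepatocytes. By the study's methods, the deletion was induced after birth, with tamoxifen injected in the first weeks of life. The controls are wild type by their labels and floxed littermates without Cre by the study's methods, and both groups were on a C57BL/6 background. The age at which these livers were taken, and whether the controls received tamoxifen, are not given in the sources used here.

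The integrated stress response starts with kinases that phosphorylate the translation factor eIF2α, each answering to a different stress such as unfolded protein in the endoplasmic reticulum, amino acid shortage, lack of heme or viral RNA. General protein synthesis then slows while the *Atf4* mRNA is translated more, so that ATF4 protein can change with no change in its mRNA. ATF4 switches on further transcription factors, enzymes of amino acid supply, and the hormones FGF21 and GDF15, which hepatocytes can release into the blood. The study also blotted ATF4 protein in liver and reported it as strongly reduced in the knockout livers. The libraries described here measure the mRNAs only.

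ATF4 binds DNA with a C/EBP partner at a composite site known as the CARE, searched here as TGATGNAA on either strand in the RefSeq promoter windows of GRCm38.p6, which run from 250 bases before to 50 bases after each start. The letters were found in 6 of the 10 genes and in 3.97% of the 32851 mouse windows. The matches that lie before the start are shown because they occur in genes that rose, fell and did not pass the test. Each stretch reads 5′ to 3′ on the gene's strand, with the match in capitals. *Atf3* is at chr1:191183410-191183469 (minus strand), *Nupr1* at chr7:126625547-126625606 (minus), *Fgf21* at chr7:45615596-45615655 (minus), *Chac1* at chr2:119351023-119351082 (plus) and *Asns* at chr6:7693210-7693258 (minus).
Atf3: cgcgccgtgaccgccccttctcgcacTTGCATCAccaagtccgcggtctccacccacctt
Nupr1: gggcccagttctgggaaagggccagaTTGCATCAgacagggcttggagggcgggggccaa
Fgf21: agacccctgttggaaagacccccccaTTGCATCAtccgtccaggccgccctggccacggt
Chac1: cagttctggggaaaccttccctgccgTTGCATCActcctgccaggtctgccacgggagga
Asns: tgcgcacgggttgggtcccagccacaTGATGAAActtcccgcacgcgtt

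The same 8 letters, TTGCATCA, stood in *Atf3*, *Nupr1*, *Fgf21* and *Chac1*. They began 110 bases before the RefSeq start in both *Atf3* and *Nupr1*, 139 bases before it in *Fgf21* and 193 bases before it in *Chac1*. For *Atf3* and *Nupr1* the windows (chr1:191183284-191183583 and chr7:126625421-126625720) lie inside the gene spans given below. Their RefSeq starts are therefore internal to those spans and not at the upstream end. *Asns* held TGATGAAA on its own strand 23 bases before the start, and *Trib3* held TTACATCA at position 14 after the start. No match lay in the windows of *Atf4*, *Atf5*, *Ddit3* or *Gdf15*. Full cyclic AMP response elements (TGACGTCA, in 1.79% of all windows) and CLEAR elements (TCACGTGA, the site of the lysosomal regulator TFEB, in 0.974%) were in none of the windows of the 10 genes. A match in these letters is a description of the sequence and not a measurement of binding.

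The libraries held between 30350002 and 35295611 counts. *Spns1* itself was 35.9, 50.7 and 34.6 CPM (counts scaled to library totals adjusted by TMM) in the controls and 17.8, 30.6 and 17.8 CPM in gSpns1-cKO, a log2 fold change of −0.87 (SE 0.25, edgeR quasi-likelihood adjusted p = 0.03). By the study, Cre removes exon 3 of *Spns1*. Counts over the whole gene can still hold transcript of the deleted allele, so they do not measure how complete the deletion was. The groups differed widely in composition, with TMM factors of 0.834 to 0.873 in the controls and 1.16 to 1.18 in gSpns1-cKO. Under TMM the 6452 genes past an adjusted p of 0.05 were 50.9% higher, against 88.3% higher with library size alone and 64.7% with upper-quartile scaling. Of the 15449 genes tested, 3286 were called higher and 3166 lower with TMM. With library size alone 7289 were called higher and 970 lower, which is the background for list counts under that scaling. The median gene lay at a log2 fold change of 0.014, 0.46 and 0.14 under TMM, library size alone and upper-quartile scaling, so changes are read relative to it. Counts for the lists around the stress response are given with TMM first and with library size alone second. Cell type markers are given with TMM only. The hepatocyte markers summed to 96258 to 110754 CPM in the controls and 58879 to 67243 CPM in gSpns1-cKO, in both groups above the sum of any other marker list. The TMM factors enter these sums, so the size of this difference depends on the scaling and would be smaller with library size alone. In whole liver, fewer cells of a type and less RNA per cell cannot be told apart.

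*Atf3*, *Nupr1* and *Gdf15* rose in the gSpns1-cKO livers, *Fgf21* fell, and *Atf4*, *Atf5*, *Ddit3*, *Trib3*, *Asns* and *Chac1* did not pass the test. That is 4 of 10 genes called (40%), against 41.8% of all genes tested, 21.3% called higher and 20.5% called lower. The share called among the 10 was therefore near the background. Their median log2 fold change was 0.04, beside 0.014 for all genes. The 3 gSpns1-cKO libraries lay above the 3 controls for 3 genes, below them for 1, and overlapped them for 6. Of all genes tested, 54.1% did not overlap, 27.1% above and 26.9% below.

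**Figure D1:**
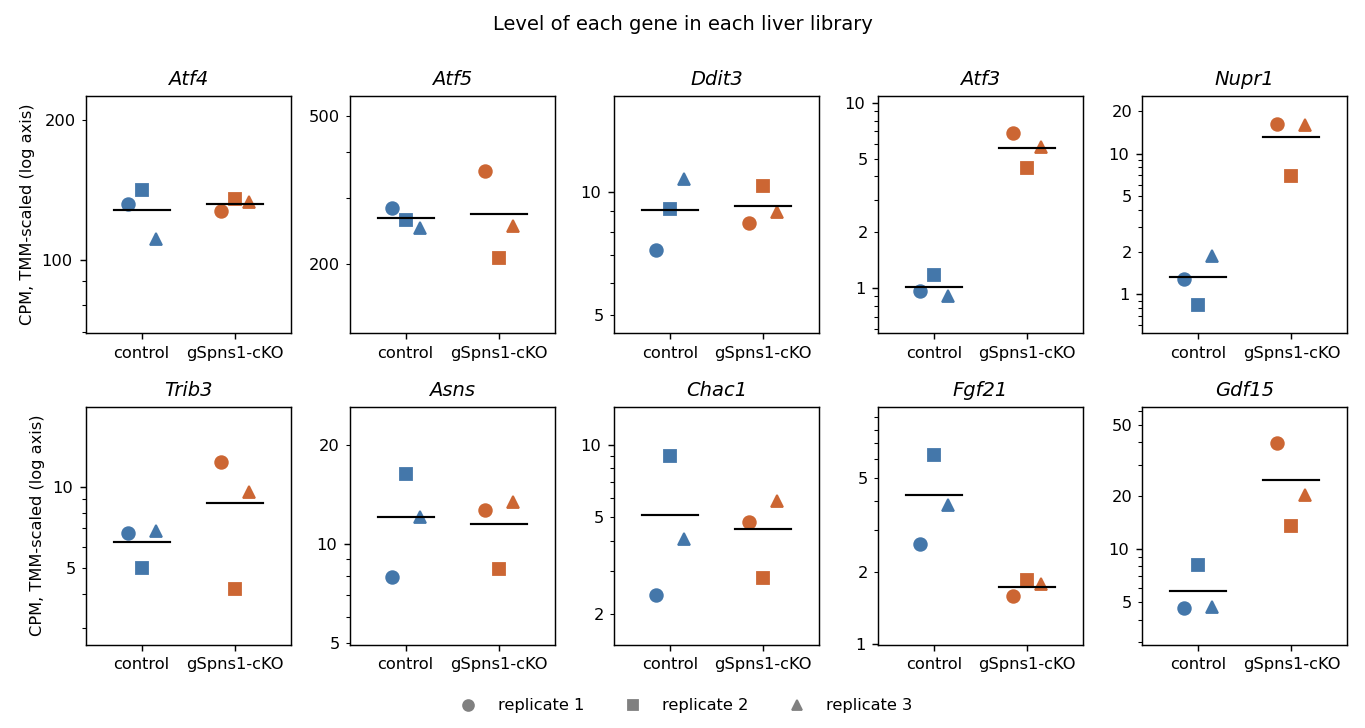
Level of each of the 10 genes in each liver library, in TMM-scaled CPM on log axes, with 3 control and 3 gSpns1-cKO points per panel. The 3 gSpns1-cKO points sit above the controls for *Atf3*, *Nupr1* and *Gdf15* and below them for *Fgf21*, and the 2 groups overlap in the other 6 panels.

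*Atf4* (chromosome 15, 80255184 to 80257541, GRCm38, plus strand), the transcription factor at the centre of the response, was 132, 141 and 111 CPM in the controls and 127, 135 and 133 CPM in gSpns1-cKO. All 3 gSpns1-cKO values lay inside the control range. The means were 128 ± 15.4 and 132 ± 4.25 CPM (SD, n = 3 each), a log2 fold change of 0.04 (SE 0.12, 95% interval −0.22 to 0.31, edgeR adjusted p = 0.799). With library size alone the log2 fold change of *Atf4* was 0.48 and passed the test (edgeR adjusted p = 0.00844), a shift shared with the median gene, and relative to that gene it was 0.03 under both scalings. *Atf4* counts were between 2811 and 5236 per library.

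*Atf5* (chromosome 7, 44812256 to 44816658, minus strand), a relative of ATF4 that is also controlled at translation, was the most abundant of the 10 in liver. It was 283, 262 and 250 CPM in the controls and 355, 208 and 254 CPM in gSpns1-cKO, so that 1 gSpns1-cKO library was the highest of the 6 and another the lowest. The log2 fold change was 0.04 (SE 0.18, 95% interval −0.37 to 0.44, edgeR adjusted p = 0.881). *Ddit3* (chromosome 10, 127290774 to 127296288, plus strand), which encodes CHOP, a factor of prolonged endoplasmic reticulum stress, was 7.22, 9.06 and 10.7 CPM in the controls and 8.39, 10.3 and 8.95 CPM in gSpns1-cKO. The gSpns1-cKO values again fell within the control range, with a log2 fold change of 0.04 (SE 0.17, 95% interval −0.35 to 0.42, edgeR adjusted p = 0.885). With library size alone *Atf5* and *Ddit3* each passed the test at 0.48 (edgeR adjusted p = 0.0454 and 0.0352). *Ddit3* shares 68 of its exon bases with *Mars* on the opposite strand and *Atf5* shares 82 with *Nup62*, and the strand setting of the counting is not given in the sources used here, so reads in those bases may be counted for either gene or for neither.

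*Atf3* (chromosome 1, 191170296 to 191218039, minus strand), a stress-inducible factor of the same bZIP family, rose 5.56-fold. Its counts were 27, 36 and 23 in the controls and 246, 170 and 226 in gSpns1-cKO, or 0.960, 1.17 and 0.909 CPM against 6.84, 4.43 and 5.75 CPM. The lowest gSpns1-cKO library held several times the CPM of the highest control, and the controls were close to one another. The log2 fold change was 2.48 (SE 0.25, 95% interval 1.92 to 3.03, edgeR adjusted p = 6.34e-05). *Atf3* and the *Jun* and *Fos* families are immediate-early genes. In a list of 15 tested genes of this kind, 46.7% were called, near the 41.8% of all genes tested. Of the list, 7 were called higher and 0 lower, or 11 and 0 with library size alone, with a median log2 fold change of 1.02. Among them, *Klf6* was 8.25, 8.54 and 8.73 CPM in the controls and 51.0, 44.7 and 44.8 CPM in gSpns1-cKO, *Fos* rose by a log2 fold change of 2.61 and *Ier3* by 1.41 (edgeR adjusted p = 7.46e-07, 0.000434 and 0.00239).

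*Nupr1* (chromosome 7, 126623249 to 126630861, minus strand), a small chromatin protein induced by stress downstream of ATF4, showed the highest fold change of the 10, at 9.90-fold (95% interval 5.02 to 19.5). It had 36, 26 and 47 counts in the controls and 581, 266 and 629 counts in gSpns1-cKO, or 1.28, 0.844 and 1.86 CPM against 16.2, 6.93 and 16.0 CPM. The log2 fold change was 3.31 (SE 0.42, edgeR adjusted p = 0.000814), and 142 of the genes called higher had a larger one. The gSpns1-cKO library lowest for *Nupr1*, replicate 2, was also the lowest for *Atf3* and *Gdf15*.

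The enzymes and the pseudokinase of the response varied between mice more than they differed between groups. *Trib3* (chromosome 2, 152337422 to 152344032, minus strand), a pseudokinase gene switched on by ATF4 and CHOP, was 6.76, 5.0 and 6.88 CPM in the controls and 12.3, 4.17 and 9.57 CPM in gSpns1-cKO. Replicates 1 and 3 of gSpns1-cKO lay above the controls and replicate 2 below them all, and the log2 fold change of 0.48 did not pass the test (SE 0.37, 95% interval −0.39 to 1.36, edgeR adjusted p = 0.336). Without gSpns1-cKO replicate 2 it was 0.82 and passed (edgeR adjusted p = 0.0100).

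*Asns* (chromosome 6, 7675169 to 7693254, minus strand), asparagine synthetase, was 7.93, 16.3 and 12.1 CPM in the controls and 12.6, 8.39 and 13.4 CPM in gSpns1-cKO. *Chac1* (chromosome 2, 119351229 to 119354381, plus strand), an enzyme that breaks down glutathione, was 2.38, 8.96 and 4.07 CPM in the controls and 4.78, 2.81 and 5.85 CPM in gSpns1-cKO. In both genes the highest of the 6 libraries and the lowest were controls, replicates 2 and 1. Their log2 fold changes were −0.08 (95% interval −0.71 to 0.56, edgeR adjusted p = 0.845) and −0.20 (95% interval −1.43 to 1.03, edgeR adjusted p = 0.783), and both signs turn with library size alone, to 0.36 and 0.23, that of *Asns* also with upper-quartile scaling. The interval for *Chac1* spans more than a doubling in either direction, so these libraries cannot show whether it changed by that much.

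The 2 hormones moved in opposite directions. *Fgf21* (chromosome 7, 45613886 to 45615490, minus strand), a fasting and stress hormone that acts through the receptor FGFR1 with β-Klotho, had 74, 192 and 97 counts in the controls and 57, 71 and 70 in gSpns1-cKO. This was 2.63, 6.23 and 3.83 CPM against 1.58, 1.85 and 1.78 CPM, and each gSpns1-cKO library lay below the lowest control. The means were 4.23 ± 1.83 and 1.74 ± 0.138 CPM (SD, n = 3 each), a log2 fold change of −1.28 (SE 0.31, 95% interval −1.97 to −0.60, edgeR adjusted p = 0.00774), or 2.44-fold lower. The controls spanned a 2.37-fold range and the gSpns1-cKO libraries a 1.17-fold range. Leaving out any 1 library kept *Fgf21* called, with log2 fold changes from −1.55 to −0.90.

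*Gdf15* (chromosome 8, 70629393 to 70632456, minus strand), a hormone of the TGF-β superfamily that lowers food intake through the brainstem receptor GFRAL, had 130, 249 and 119 counts in the controls and 1429, 521 and 792 in gSpns1-cKO. The CPM values were 4.62, 8.09 and 4.70 against 39.7, 13.6 and 20.1, so that each gSpns1-cKO library exceeded the highest control. The means were 5.80 ± 1.98 and 24.5 ± 13.6 CPM (SD, n = 3 each), a log2 fold change of 2.07 (SE 0.49, 95% interval 0.84 to 3.30, edgeR adjusted p = 0.0218), or 4.20-fold (1.79 to 9.85). The call was lost without any 1 of 3 libraries, since the adjusted p of edgeR was 0.0744 without control replicate 1, 0.0708 without control replicate 3 and 0.0549 without gSpns1-cKO replicate 3, and it was 0.00309 without gSpns1-cKO replicate 1, the highest library, where the log2 fold change was 1.53. It was also 0.0727 with the loosest filter on low counts and 0.0669 with a replicate block, where the log2 fold change was 1.97.

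**Figure D2:**
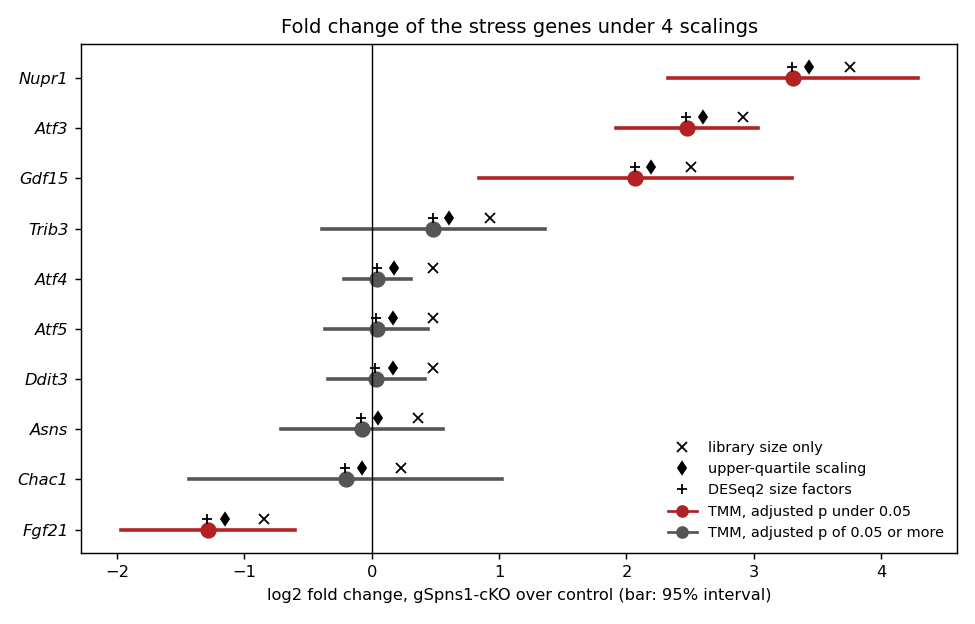
Log2 fold change of each gene, gSpns1-cKO over control, under 4 scalings of the libraries. Bars are the 95% intervals of the TMM values, and the other scalings are shown as points without bars. The values of *Atf3*, *Nupr1* and *Gdf15* lie to the right of 0 and *Fgf21* to the left of it under each scaling, while *Atf4*, *Atf5* and *Ddit3* move from 0.04 to 0.48 with library size only.

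A ratio of counts within a library does not depend on the scaling between libraries. The *Gdf15* to *Fgf21* count ratio was 1.76, 1.30 and 1.23 in the controls and 25.1, 7.34 and 11.3 in gSpns1-cKO. The log2 difference was 3.18, with an exact two-sided permutation p of 0.1, which is the smallest that 3 against 3 livers can give. Each gSpns1-cKO library already lay above the controls for *Gdf15* and below them for *Fgf21*. The separation of this ratio follows from that and is not a further test. Expressed as a percentage of the *Atf4* counts of the same library, *Atf3* was 0.729%, 0.828% and 0.818% in the controls and 5.38%, 3.28% and 4.32% in gSpns1-cKO. *Nupr1* was 0.972%, 0.598% and 1.67% against 12.7%, 5.13% and 12.0%. *Fgf21* was 2.00%, 4.42% and 3.45% against 1.25%, 1.37% and 1.34%. The groups separated in these ratios as they did in CPM (exact p = 0.1 each), and for *Ddit3*, *Trib3*, *Asns*, *Chac1* and *Atf5* they overlapped (exact permutation p from 0.6 to 1).

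The libraries also ranked differently from gene to gene. Within the controls, replicate 2 was highest for 6 of the 10 genes and replicate 1 lowest for 5. Within gSpns1-cKO, replicate 1 was highest for 5 and replicate 2 lowest for 7, while replicate 3 was lowest for none. The highest library stood 3.76-fold above the lowest for *Chac1* in the controls, and 2.95-fold for *Trib3* and 2.93-fold for *Gdf15* in gSpns1-cKO, against 1.27-fold and 1.06-fold for *Atf4* in the 2 groups. Beside the 500 tested genes nearest in abundance, the dispersions of *Gdf15*, *Asns*, *Trib3*, *Nupr1* and *Chac1* lay at percentiles 98.4, 97.8, 97.2, 97.0 and 96.4, and that of *Atf4* at 46.6.

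**Figure D3:**
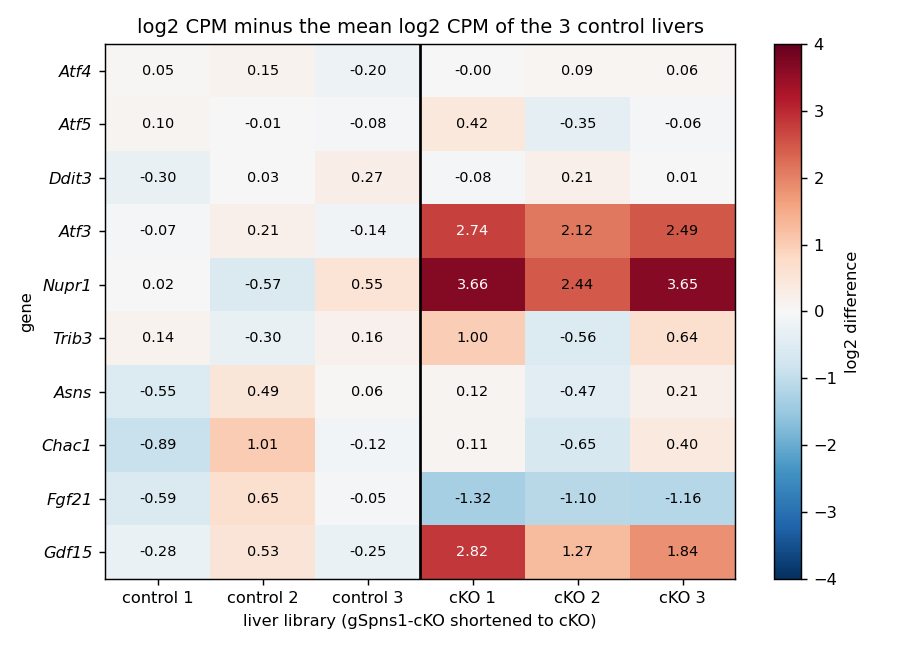
Difference in log2 CPM between each liver library and the mean of the 3 controls, with 1 row per gene and 1 column per library. The gSpns1-cKO columns run from 1.27 to 3.66 for *Atf3*, *Nupr1* and *Gdf15* and from −1.32 to −1.10 for *Fgf21*, and *Trib3* ranges from −0.56 to 1.00 among the 3 gSpns1-cKO livers.

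Per kilobase of gene length, *Atf5* and *Atf4* were the most abundant of the 10 in both groups, at 133 and 54.3 CPM per kb in the controls and 137 and 55.9 in gSpns1-cKO. In the controls *Ddit3* (5.26), *Fgf21* (4.45), *Asns* (4.42), *Chac1* (3.14), *Gdf15* (3.13) and *Trib3* (2.92 CPM per kb) followed, with overlapping libraries between each neighbouring pair, and *Nupr1* (0.528) and *Atf3* (0.470) stood last. *Gdf15* was the third most abundant in gSpns1-cKO at 13.2 CPM per kb, with no overlap with *Ddit3* at 5.38, the next. *Nupr1* followed at 5.18, *Asns* at 4.20, *Trib3* at 4.09, *Chac1* at 2.74 and *Atf3* at 2.63, each overlapping its neighbour. *Fgf21* stood last at 1.83 CPM per kb, its libraries below those of *Atf3*.

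Upstream of *Atf4*, 1 eIF2α kinase gene rose and another fell with TMM. *Eif2ak3*, which encodes PERK, the kinase of endoplasmic reticulum stress, was 11.6, 12.8 and 14.8 CPM in the controls and 43.3, 34.9 and 51.0 CPM in gSpns1-cKO, a log2 fold change of 1.72 (SE 0.16, edgeR adjusted p = 3.59e-05). *Eif2ak1*, the heme-regulated kinase HRI, went the other way, from 51.0, 50.7 and 54.9 CPM to 33.8, 32.1 and 30.6 CPM, a log2 fold change of −0.70 (SE 0.10, edgeR adjusted p = 0.000414). *Eif2ak2* (PKR) and *Eif2ak4* (GCN2) had log2 fold changes of 0.13 and 0.25 and did not pass the test (edgeR adjusted p = 0.496 and 0.270). With library size alone both were called higher, at 0.57 and 0.69 (edgeR adjusted p = 0.00528 and 0.00772), beside 0.46 for the median gene. *Eif2ak1* was then at −0.25 (edgeR adjusted p = 0.0446). *Impact*, an inhibitor of GCN2, rose by a log2 fold change of 1.19 (edgeR adjusted p = 0.000233). In all, 3 of the 23 genes for kinases, eIF2, eIF2B and eIF2α phosphatase were called higher and 4 lower (30.4%, against 41.8% of all genes tested, median −0.18). With library size alone these became 11 and 1, beside 7289 and 970 of all 15449 genes tested. With TMM, 2 were called lower without control replicate 2 or 3.

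Known ATF4 targets outside the 10 were called in both directions. Of 21 tested genes of amino acid transport and synthesis, 9 were called higher and 5 lower (66.7%, against 41.8% of all genes tested, median 0.53). With library size alone these were 13 and 1. The cystine transporter *Slc7a11* had 1, 0 and 0 counts in the controls and 102, 25 and 125 in gSpns1-cKO (edgeR adjusted p = 0.000671). The neutral amino acid transporter *Slc1a4* was 4.30, 2.11 and 2.49 CPM in the controls and 18.6, 26.1 and 20.9 CPM in gSpns1-cKO, and the serine synthesis enzyme *Psat1* rose by a log2 fold change of 2.20 (edgeR adjusted p = 7.14e-05 and 0.0133). *Cbs* and *Cth*, which make cysteine from homocysteine, fell by 1.05 and 0.77 on the log2 scale, and the glycine transporter *Slc6a9* by 1.30 (edgeR adjusted p = 0.0173, 0.00900 and 8.73e-05). With library size alone *Slc6a9* was still called, while *Cbs* and *Cth* were at −0.61 and −0.32 and did not pass (edgeR adjusted p = 0.0962 and 0.169).

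Of 13 genes of tRNA charging, all synthetases but the tRNA exporter *Xpot*, 1 was called higher (*Iars*) and 3 lower (*Aars*, *Mars* and *Yars*). The share called was 30.8%, below the 41.8% of all genes tested. Log2 fold changes ran from −0.59 to 0.38, and 7 were called higher and 0 lower with library size alone. *Iars* was no longer called without any 1 of the controls, or without gSpns1-cKO replicate 1 or 3. Among 18 other ATF4 and CHOP targets, with *Slc7a11* counted again, 7 were called higher and 3 lower (55.6%, median 0.29), or 10 and 1 with library size alone. Called higher were 4 without control replicate 2, with the replicate block or with at least 10 counts in every library, and called lower were 5 without control replicate 1. The lipoprotein receptor *Vldlr* rose by a log2 fold change of 3.08 and the mTORC1 inhibitor *Ddit4* by 1.40 (edgeR adjusted p = 0.0130 and 0.0181). *Cebpb*, whose product can pair with ATF4, fell by 1.25 (edgeR adjusted p = 0.000486). Relatives of the 10 genes were called higher in 3 and lower in 6 of 22 cases (40.9%, median 0.03), or 12 and 3 with library size alone and 5 higher without control replicate 1, with *Ddit4l* rising by a log2 fold change of 2.81 and *Trib2* by 1.24, and *Cebpa* falling by 1.41 on the log2 scale (edgeR adjusted p = 0.000374, 0.00188 and 0.000213).

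In the ATF6 and IRE1 branches of the unfolded protein response and in mitochondrial stress, more genes were called lower than higher with TMM and more higher than lower with library size alone, a shift shared with the median gene. Of 29 genes of the ATF6 and IRE1 branches, 1 was called higher and 7 lower (27.6%, against 41.8% of all genes tested, median −0.11). The chaperone *Dnajb9* rose by a log2 fold change of 0.72 (edgeR adjusted p = 0.0244), and those called lower included *Derl3*, *Pdia6* and *Herpud1*. With library size alone 14 were called higher and 2 lower (median 0.33). Called higher were 6 without gSpns1-cKO replicate 2, 4 with a filter of at least 1 count in any library, and 0 without control replicate 1 or gSpns1-cKO replicate 1 or 3, and called lower were 4 without control replicate 2. Of 14 genes of mitochondrial stress, 1 was called higher and 7 lower (57.1%, against 41.8% of all genes tested, median −0.28). With library size alone these were 4 and 0 (median 0.17). Called lower were 3 without gSpns1-cKO replicate 3 and 4 without control replicate 3, and called higher were 0 without control replicate 1 and 2 without control replicate 2. Among them, *Clpx* rose by 0.38, and the protease genes *Clpp* and *Lonp1* and the chaperone gene *Trap1* fell by 0.64, 0.52 and 0.54 on the log2 scale (edgeR adjusted p = 0.0145, 0.00112, 0.00463 and 0.00286), and with library size alone these 3 were at −0.19, −0.08 and −0.10 and did not pass (lowest edgeR adjusted p 0.168). Of 20 genes of the p53 pathway, p53 (*Trp53*) and its targets, 7 were called higher and 3 lower (50%, against 41.8% of all genes tested, median 0.35). These became 16 and 1 with library size alone, and 4 were called higher without control replicate 3. *Trp53* itself was one of the 7, at a log2 fold change of 0.54 (edgeR adjusted p = 0.0151). *Cdkn1a* was 1.24, 1.53 and 3.08 CPM in the controls and 8.06, 7.56 and 7.10 CPM in gSpns1-cKO (edgeR adjusted p = 0.000731). Among the 3 called lower, *Fas* and *Ei24* fell by 0.89 and 0.58 on the log2 scale (edgeR adjusted p = 0.000548 and 0.00655). With library size alone they were at −0.45 and −0.14, and only *Fas* passed (edgeR adjusted p = 0.0145 and 0.388).

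*Fgf21* is also a target of PPARα, the receptor that switches on fatty acid use in fasting. Of 20 genes, *Ppara* itself with targets and partners of PPARα, 14 were called lower and 2 higher (80%, against 41.8% of all genes), with a median log2 fold change of −1.01. With library size alone 11 were lower and 2 higher. The lists were chosen with earlier results of these data known, and a link of these genes to the fall of *Fgf21* was not tested. *Ppara* was one of the 14, at −0.51 (edgeR adjusted p = 0.00997), and did not pass with library size alone (−0.07). The thioesterase *Acot1* was 40.3, 37.8 and 57.4 CPM in the controls and 2.92, 4.01 and 1.5 CPM in gSpns1-cKO, and *Angptl4*, an inhibitor of lipoprotein lipase, was 235, 325 and 299 CPM against 37.0, 60.5 and 20.9 CPM (edgeR adjusted p = 0.000506 and 0.00326). *Fabp1* fell by 2.6 on the log2 scale (edgeR adjusted p = 0.00145). *Pdk4* and *Ppargc1a* rose, by log2 fold changes of 1.11 and 1.30 (edgeR adjusted p = 0.00411 and 0.00822). *Creb3l3*, a liver transcription factor known to act on *Fgf21* together with PPARα, was 339, 420 and 455 CPM in the controls and 172, 160 and 145 CPM in gSpns1-cKO, a log2 fold change of −1.35 (edgeR adjusted p = 8.79e-05).

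The list for hormone receptors also held proteases that process the hormones and related FGF ligands, with 9 of 15 genes tested. Of these, 2 were called higher (*Fgfr2* and *Mmp14*) and 3 lower (*Fgfr4*, *Furin* and *Pcsk7*), or 3 and 0 with library size alone. The share called was 55.6%, against 41.8% of all genes tested. *Fgfr2*, an FGF receptor, was 32.5, 27.0 and 30.8 CPM in the controls and 36.6, 45.9 and 52.0 CPM in gSpns1-cKO, a log2 fold change of 0.58 (edgeR adjusted p = 0.00786). *Mmp14*, a membrane metalloprotease, rose by a log2 fold change of 0.90 (edgeR adjusted p = 0.00131), and with library size alone these values were 1.02 and 1.35. *Fgfr4*, the main FGF receptor of hepatocytes, was 46.5, 53.6 and 53 CPM in the controls and 37.9, 26.2 and 23.3 CPM in gSpns1-cKO, a log2 fold change of −0.81 (edgeR adjusted p = 0.00464), and −0.37 with library size alone (0.0889). *Fgfr1* and *Klb* were each at −0.29, or 0.15 with library size alone, and did not pass (edgeR adjusted p = 0.15 and 0.0731 with TMM). *Gfral* had 0 counts in all 6 libraries, each of which allows at most 0.0763 to 0.119 CPM by the limit of 3 counts, and *Ret*, its partner, had at most 3. *Furin*, whose protease product matures GDF15, was lower at −0.34 with TMM (edgeR adjusted p = 0.0438) and at 0.11 with library size alone, where it did not pass.

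**Figure D4:**
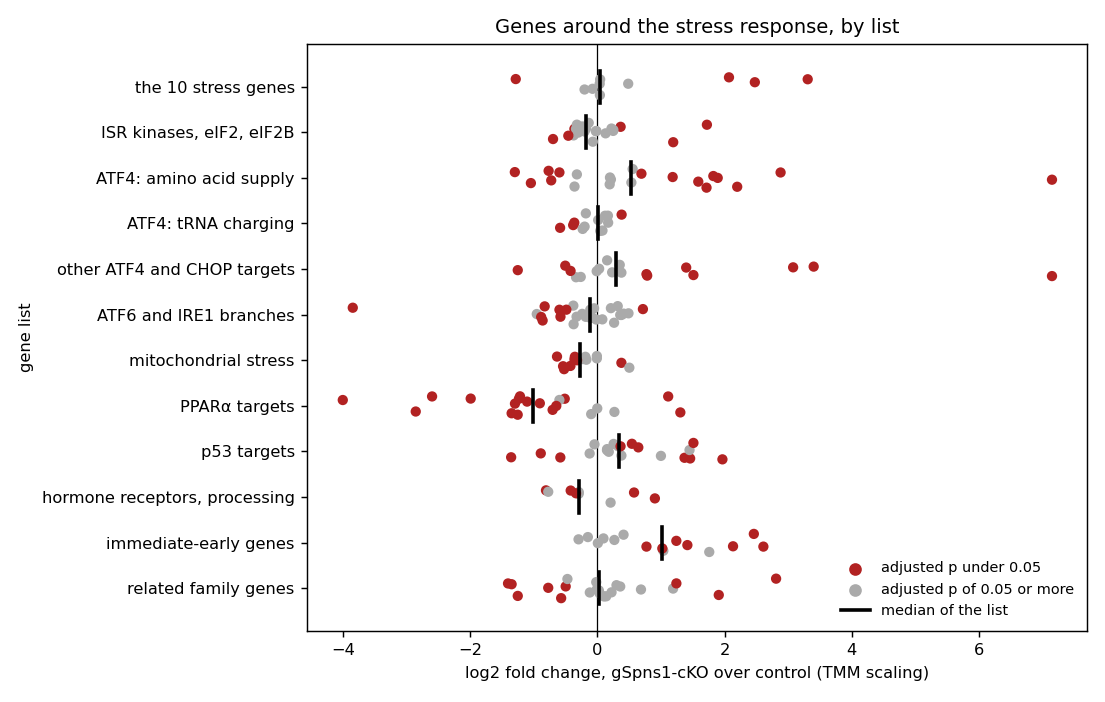
Log2 fold change, gSpns1-cKO over control under TMM scaling, of each tested gene in the lists around the stress response, with 1 row per list, red points past an adjusted p of 0.05, grey points not, and a black line at each list's median. Medians run from −1.01 for *Ppara* and its targets to 1.02 for the ATF3 partners and immediate-early genes, with points on both sides of 0 in each list.

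The genes whose levels ran closest to each member over the 6 libraries were found among 12916 genes by the root mean square difference of centred log2 CPM. For *Fgf21* they were *Slc25a29*, *Oplah* and *Myl6b*, at differences of 0.18, 0.19 and 0.20. For *Gdf15* they were *Dpt*, *Ppm1h* and *Adcy1* (0.19, 0.21 and 0.25), for *Atf4* they were *Cyb561d1*, *Pprc1* and *2210016L21Rik* (0.03, 0.03 and 0.04), and for *Trib3* they were *Mthfd2*, *Ugdh* and *Gm10734* (0.12, 0.15 and 0.21). *Mthfd2*, a mitochondrial folate enzyme and itself an ATF4 target, was 2.17, 1.59 and 1.90 CPM in the controls and 4.0, 1.51 and 2.8 CPM in gSpns1-cKO, with the same gSpns1-cKO order as *Trib3*.

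The markers of other liver cell types moved in the same libraries as *Atf3*, *Nupr1*, *Gdf15* and *Fgf21*. For comparison, 21.3% of all genes tested were called higher and 20.5% lower with TMM, the only scaling used for the marker calls and sums. All 11 macrophage and Kupffer cell markers were called higher, summing to 190 to 309 CPM in the controls and 758 to 1128 CPM in gSpns1-cKO. The 6 cholangiocyte markers were all called higher (44.2 to 62.9 against 172 to 280 CPM), as were 6 of 8 stellate cell and fibroblast markers (179 to 199.7 against 492 to 545 CPM), 5 of 7 endothelial markers (141 to 158 against 209 to 255 CPM) and the 4 tested neutrophil markers (3.20 to 5.75 against 9.70 to 15.5 CPM). Of 10 T, NK and B cell markers 2 were called higher and 1 lower (5.33 to 6.33 against 8.31 to 8.68 CPM), and of 5 tested erythroid markers 2 higher and 1 lower (132 to 155 against 83.4 to 193 CPM). Of 7 hepatocyte markers 3 were called lower and 0 higher. No marker was at 0 in all 6 libraries. Their part in the results for *Atf3*, *Nupr1*, *Gdf15* and *Fgf21* was not tested. All 6 libraries held transcripts of the Y-linked genes and at most 5 counts of *Xist*.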

How the data were processed

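Liver RNA of 3 control and 3 gSpns1-cKO mice was sequenced by the study's service provider. The submitters' processing notes name fastp, HISAT2 2.0.5, featureCounts 1.5.0-p3 and mm10, and the strand setting is not given in the sources used here. The authors deposited raw counts per gene for each library. They also deposited FPKM values, group means, fold changes and p-values, none of which were used.

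Genes kept by filterByExpr (15449) were tested on the deposited counts with the edgeR 4.0.16 quasi-likelihood test (R 4.3.3, TMM scaling, design with group only), with Benjamini-Hochberg adjustment over all genes and a threshold of 0.05. Values after ± are SD over livers, SE and intervals come from the fit, and p-values measure the spread between these livers. A count of 0 allows up to 3 counts. These limits cover counting error only. The scripts were tested on simulated data. Total counts per library were 30350002 to 35295611. No 2 libraries of the same group agreed within sampling noise, and pairs across the groups were not compared. Gene positions were the same in the table and GENCODE M21 for the 10 genes. Sequences came from RefSeq windows of GRCm38.p6, and no protein sequences were used here.

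Alternatives were library size only, upper-quartile scaling, DESeq2 size factors, 2 other filters, DESeq2 1.42.0, limma-voom (limma 3.58.1), leaving out each library, and a replicate block. Genes named beyond the 10 were the eIF2α kinases, the receptors *Fgfr4*, *Fgfr1*, *Klb*, *Gfral* and *Ret*, at most 3 called genes per direction and list with the largest changes and a mean of at least 1 CPM, and the 3 genes nearest to 4 of the members, with *Mthfd2* as one of them. *Trp53* and *Ppara* were also named, as the regulators of their lists. The members and lists were chosen with earlier results of these data known.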

Additional observations from a re-analysis of the deposited data

How the results depend on the processing

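The calls of *Atf3*, *Nupr1* and *Fgf21* held under all 14 alternatives. With library size only, log2 fold changes were 0.48 for *Atf4* (edgeR adjusted p = 0.00844), 0.48 for *Ddit3* (0.0352), 0.48 for *Atf5* (0.0454), 0.36 for *Asns* and 0.23 for *Chac1*, the last 2 having turned sign without passing the test. Under this scaling 6 members and 96 genes of the pathway lists were called higher and 18 list genes lower, against 3, 40 and 53 with TMM. Of all 15449 genes tested, 7289 were called higher and 970 lower, against 3286 and 3166 with TMM. The median gene lay at 0.46, as given above. Upper-quartile scaling put *Asns* at 0.052. *Gdf15* was 2.06 with a filter of at least 1 count in any library (edgeR adjusted p = 0.0727). Leaving out 1 library at a time gave −0.061 to 0.11 for *Atf4*, −0.11 to 0.17 for *Ddit3*, 0.15 to 0.82 for *Trib3*, −0.32 to 0.19 for *Asns*, −0.56 to 0.47 for *Chac1*, 2.32 to 2.63 for *Atf3*, −0.20 to 0.20 for *Atf5*, 3.05 to 3.61 for *Nupr1*, −1.55 to −0.90 for *Fgf21* and 1.53 to 2.38 for *Gdf15*. It gave 2 to 4 members called higher and 1 called lower, and 32 to 44 genes of the pathway lists higher and 41 to 54 lower. The cause of these shifts was not tested, apart from the scaling itself. With only 3 livers per group, an exact test cannot go below p = 0.1.

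The replicate numbers gave no clear sign of pairing: same-numbered samples deviated with correlations of 0.0377, 0.0342 and −0.0232, and 2 of 3 correlated best with their own number. With 3 livers per group this check cannot exclude a pairing. With the replicate block, 6100 genes were called against 6452, 2 members were called higher and 1 lower, and *Gdf15* was 1.97 and no longer called (edgeR adjusted p = 0.0669).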
